A study of Mus musculus with 8 samples.

Results

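Histone genes of the replication-dependent clusters were followed in RNA of whole testis from Dnmt3a mutant and wild-type mice. Members were all gene entries whose symbol began with Hist1h, Hist2h, Hist3h or Hist4h, 69 of the 54087 genes counted. They comprised 5 linker histone genes of body cells, the testis linker gene Hist1h1t, 19 H2A, 18 H2B, 12 H3 and 13 H4 genes, and the testis H2B gene Hist1h2ba. Of these, 55 lay in the Hist1 cluster on chromosome 13, 10 in Hist2 on chromosome 3, 3 in Hist3 on chromosome 11 and 1 in Hist4 on chromosome 6. Mice were C57BL/6 males, homozygous KO or WT for Dnmt3a, taken at 19 or 25 days post partum (dpp). There were 2 libraries in each of the 4 groups (KO and WT at 19 dpp, KO and WT at 25 dpp) and 8 in all. The enzyme DNMT3A methylates DNA that carried no mark before. The labels name neither the deleted part of the gene nor whether the 2 libraries of a group came from separate animals, so p-values measure the spread between libraries.

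Histones package DNA: H2A, H2B, H3 and H4 form the nucleosome core, and linker histone H1 binds where DNA enters and leaves it. Most genes of the clusters are transcribed in S phase, and their mRNA ends in a short stem-loop in place of a poly(A) tail. In spermatogenesis, testis forms are added before meiosis ends: H1t (Hist1h1t) in spermatocytes, and TH2B (Hist1h2ba) with its partner TH2A (Hist1h2aa). After meiosis most histones are replaced by transition proteins and protamines. Per the labels the libraries were made with a kit for mRNA, a kind that selects poly(A) tails, so these counts reflect mainly the histone transcripts that were polyadenylated.

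The stem-loop is rare outside these genes, so its forms are shown, 5′ to 3′, with the 4-base loop in capitals between the 6-base stem arms. A match to a stem-loop of this consensus was found in transcripts of 46 of 69 members, against 86 of 55341 genes (0.155%) in GENCODE M21.
Commonest form, 26 members of the H2A, H2B, H3 and linker classes: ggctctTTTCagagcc
Commonest H4 form, 7 members: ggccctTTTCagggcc
Form of Hist1h1t and of 5 H2B and H3 genes: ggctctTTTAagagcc
Form of Hist1h4a alone: ggccctTCTCagggcc
Form of Hist2h2ac alone: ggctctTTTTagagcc
In the longest such transcript of each of the 46 members, 3 to 4884 bases followed the loop. More than 100 bases followed in 23 of them, among these Hist1h1t with 185 and Hist1h4i with 330. In Hist2h2aa1 and Hist1h2bp 35 and 38 bases followed.

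Members drew few reads, 2063 to 11468 counts per library out of 22515812 to 50445334 counts over all genes. The highest shares of all gene counts, 0.0227% and 0.0179%, were in the WT libraries at 25 dpp, and the other 6 libraries had 0.00760% to 0.0123%. Counts concentrated on few genes: the 5 most counted members (Hist2h2aa1, Hist2h2be, Hist1h2bc, Hist1h1c and Hist3h2a) held 75% to 83.4% of member counts in each library. Between 52 and 67 members had at least 1 count in a library, and Hist2h3c1 had none in the 8 libraries. The low-count filter kept 31 members. Of these, 6 (Hist2h2ac, Hist2h2aa2, Hist1h4c, Hist1h4a, Hist1h3a and Hist1h2aa) passed only through the 2 WT libraries at 25 dpp, so their tests against those libraries were favoured by the filter. Their calls against those libraries are given without the p of the filtered fit, and counts over the tested members are descriptions. Counts at 25 dpp, with age in WT and for the difference of the KO effects between the ages are given with and without them. At 19 dpp and with age in KO 0 of the 6 were called. Counts by place include them, and those under other settings were not split. In a fit without a filter all 6 were called lower in KO at 25 dpp (adjusted p 9.51e-07 to 0.00658, edgeR). In WT, 5 were called higher at 25 than at 19 dpp. The 6 were set apart by their counts in those WT libraries, so calls from this fit are descriptions too, here and below. Its adjusted p also ran lower: the smallest over all genes for KO over WT at 25 dpp was 1.19e-13, against 2.26e-04 in the filtered fit (edgeR). P-values of these fits are not comparable. Levels below are CPM, counts per fixed number of reads after TMM scaling. Differences are on the log2 scale, KO minus WT or 25 minus 19 dpp, and come with a standard error (SE) from the quasi-likelihood fit of edgeR to 23353 genes. A change was called at a Benjamini-Hochberg adjusted p below 0.05 over those genes.

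The sum over all members was 115.8 and 104.6 CPM in KO and 66.2 and 104.03 CPM in WT at 19 dpp. At 25 dpp it was 75.8 and 86.3 CPM in KO and 312.6 and 214.7 CPM in WT. At 25 dpp the groups did not overlap, and the WT libraries stood above the other 6. The H2A sum followed that order, with 22.7 and 32.0 CPM in KO and 180.6 and 110.5 CPM in WT at 25 dpp. The H2B sum was 28.5 and 26.9 CPM in KO and 97.3 and 77.01 CPM in WT at that age, and the H4 sum was 3.62 and 4.93 CPM in KO and 14.6 and 8.72 CPM in WT. The linker sum without Hist1h1t ran the other way, at 17.9 and 17.1 CPM in KO and 7.72 and 8.19 CPM in WT. With 2 libraries a group, these sums are described and not tested. In bulk RNA, fewer cells of a type and less RNA per cell cannot be told apart.

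**Figure D1:**
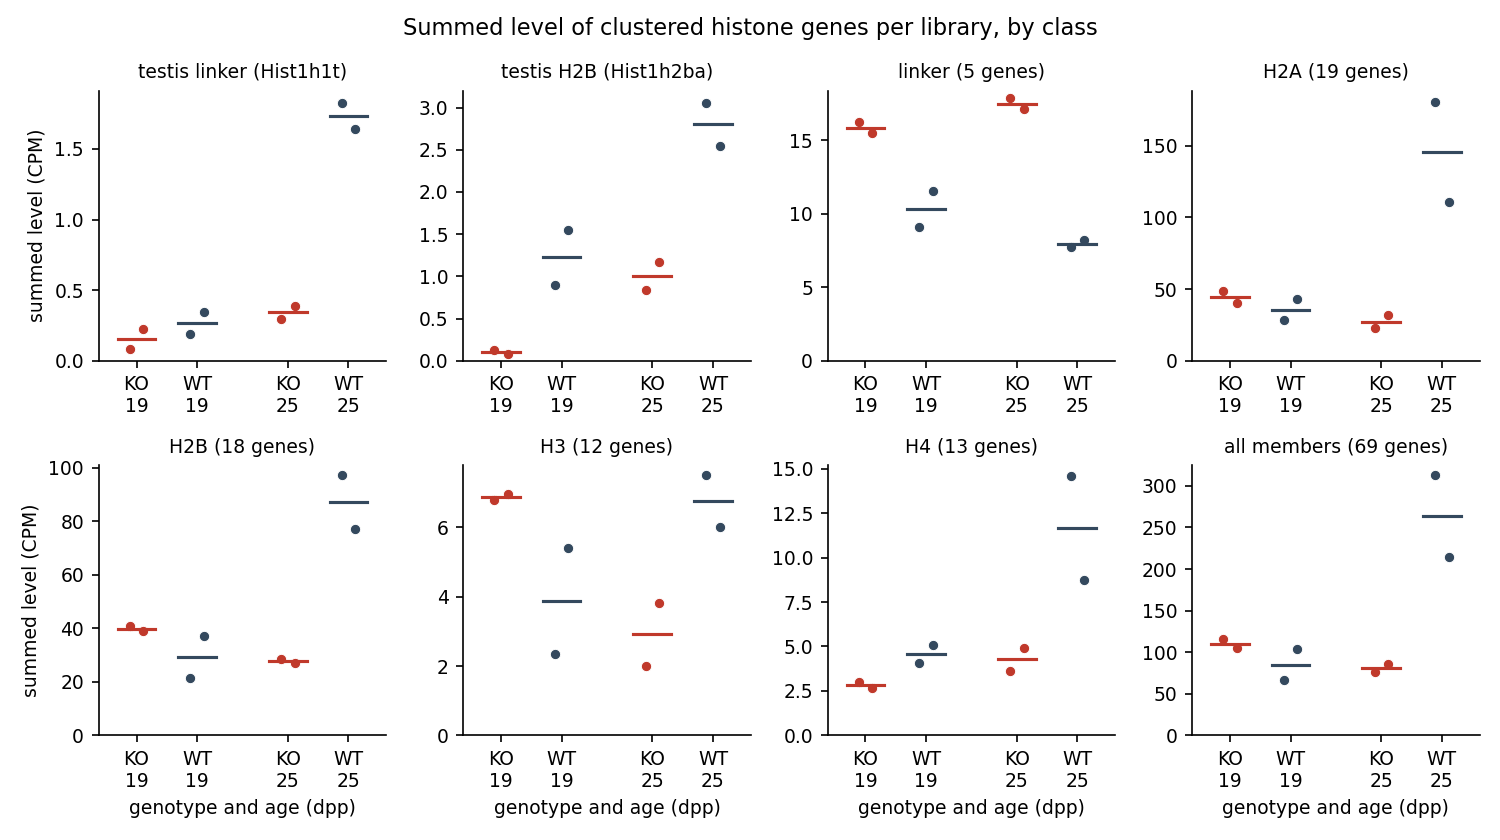
Summed level (CPM, linear axes from 0) of clustered histone genes in each library, for the testis linker gene, the testis H2B gene, the other classes and all 69 members; points are libraries, bars the mean of 2, red KO and dark blue WT at 19 and 25 dpp. WT libraries at 25 dpp are highest for the testis forms, H2A, H2B, H4 and all members, while linker genes are highest in KO.

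The testis linker gene Hist1h1t (chromosome 13, 23695814 onward, plus strand, GENCODE M21 on GRCm38, the assembly behind mm10) had 11 and 11 counts in KO and 67 and 56 counts in WT at 25 dpp. These were 0.297 and 0.390 CPM in KO and 1.83 and 1.64 CPM in WT, so WT lay above KO without overlap. The log2 difference, KO minus WT, was −2.33 (SE 0.51, adjusted p = 0.00501, edgeR). At 19 dpp it had 2 and 8 counts in KO and 6 and 12 in WT, overlapping groups, with a difference of −0.71 (SE 0.62, adjusted p = 0.453, edgeR). From 19 to 25 dpp Hist1h1t rose by 2.66 (SE 0.52, adjusted p = 0.00386) in WT, and the KO value was 1.04 (SE 0.60, adjusted p = 0.267). No exonic 75-base window of Hist1h1t was found in transcripts of another gene.

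Among all linker counts, Hist1h1t held 1.64% (exact 95% binomial interval 0.820% to 2.91%) and 2.23% (1.12% to 3.96%) in KO and 19.1% (15.2% to 23.7%) and 16.7% (12.8% to 21.1%) in WT at 25 dpp. At 19 dpp the share was 0.513% and 1.45% in KO and 2.08% and 2.91% in WT. Intervals here cover counting error only. Divided by exon length, the 25 dpp shares were 2.68% and 3.63% in KO and 26.1% and 24.1% in WT.

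**Figure D2:**
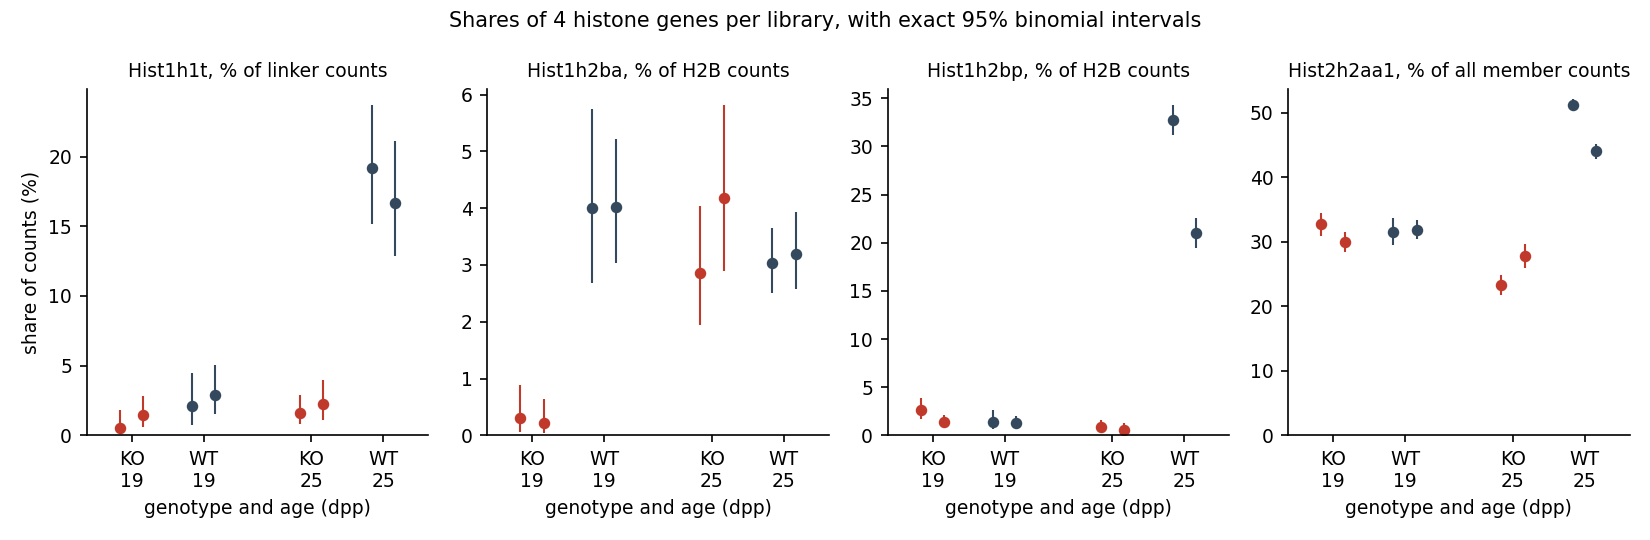
Share of counts (%) per library, with exact 95% binomial intervals, for Hist1h1t within linker genes (Hist1h1t included), Hist1h2ba and Hist1h2bp within H2B genes (both included) and Hist2h2aa1 within all members; red KO, dark blue WT, age in dpp. Hist1h1t, Hist1h2bp and Hist2h2aa1 stand highest in WT at 25 dpp, and Hist1h2ba is lowest in KO at 19 dpp.

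Hist1h1c, the gene of the linker histone H1.2 found in many tissues, was the one member called higher in KO at both ages. It had 14.9 and 14.6 CPM in KO and 8.19 and 9.22 CPM in WT at 19 dpp. At 25 dpp it had 16.8 and 15.6 CPM in KO and 6.05 and 7.14 CPM in WT. KO libraries lay above WT libraries at each age. By edgeR, KO exceeded WT by 0.76 (SE 0.20, adjusted p = 0.0337) at the younger age. At 25 dpp the value was 1.30 (SE 0.20, adjusted p = 0.00135). Both calls were lost with libraries scaled to Sertoli cell genes, at −0.10 and −0.15 (adjusted p = 0.781 and 0.591, edgeR). For the 25 dpp call this was the 1 loss in 18 alternatives, while the 19 dpp call was lost in 9 of 18. The latter was also lost with total counts (0.68, adjusted p = 0.0804) and without a filter (0.74, adjusted p = 0.0683). Leaving out any 1 of the 4 libraries at 19 dpp (0.68 to 0.85) or either KO library at 25 dpp lost it too. Its share of linker counts was 92.4% and 89.05% in KO and 63.4% and 72.6% in WT at 25 dpp. With Hist1h1t left out of the linker counts it was 93.9% and 91.1% in KO and 78.4% and 87.1% in WT, still without overlap but closer together.

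The other linker genes had few counts. By edgeR none of the 3 tested was called between KO and WT, and 1 of them, Hist1h1a at 19 dpp, had an unadjusted p under 0.05 (0.0432). Hist1h1a, which encodes H1.1, had 0.460 and 0.497 CPM in KO and 1.01 and 0.556 CPM in WT at 25 dpp (−0.71, SE 0.50, adjusted p = 0.246, edgeR). At 19 dpp it had 0.377 and 0.397 CPM in KO and 0.642 and 1.21 CPM in WT (−1.25, SE 0.52, adjusted p = 0.123). With Sertoli scaling Hist1h1a passed at both ages, at −2.12 (adjusted p = 0.0280) and −2.20 (adjusted p = 0.0122). Hist1h1b (H1.5) had 8 and 8 counts in KO and 7 and 5 in WT at 25 dpp, Hist1h1e (H1.4) 10 and 17 in KO and 10 and 7 in WT, and Hist1h1d (H1.3), which was not tested, 5 and 4 in KO and 7 and 5 in WT. Hist1h1e overlaps Hist1h2be on the same strand, so reads there could not be assigned to 1 gene.

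The shown stretches before Hist1h1t and Hist1h1c hold the 100 bases up to the RefSeq start (RefSeq promoters, GRCm38.p6, plus strand), with CCAAT in capitals where a match on either strand was found. They are the linker genes whose difference at 25 dpp was called, in opposite directions.
Hist1h1t, chr13:23695711-23695810: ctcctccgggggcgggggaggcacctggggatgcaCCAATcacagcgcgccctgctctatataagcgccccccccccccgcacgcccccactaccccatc
Hist1h1c, chr13:23738707-23738806: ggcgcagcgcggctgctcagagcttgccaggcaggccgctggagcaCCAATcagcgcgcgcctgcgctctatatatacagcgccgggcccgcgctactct
Over the 250 bases before each start, 61 members had a RefSeq promoter. CCAAT on either strand occurred in 82.0% of them, against 33.8% of 32851 promoters. TATAAA occurred in 47.5% of member promoters, against 12.4% of all, and ATTTGCAT, the octamer known from H2B promoters, in 21.3%, against 1.6%. These are matches of letters and say nothing of binding.

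The testis pair Hist1h2ba and Hist1h2aa lies at the far end of the Hist1 cluster, transcribed away from each other with 305 bases between the gene starts. The H2B partner Hist1h2ba had 3 and 3 counts in KO and 28 and 54 in WT at 19 dpp. That was 0.126 and 0.0851 CPM in KO and 0.899 and 1.55 CPM in WT, with no overlap. The difference of −3.53 (SE 0.54, adjusted p = 0.00811, edgeR) was the largest called among members at that age. At 25 dpp Hist1h2ba stood at 0.838 and 1.17 CPM in KO and 3.05 and 2.54 CPM in WT, again without overlap (−1.48, SE 0.41, adjusted p = 0.0140). In KO it rose by 3.24 from 19 to 25 dpp (SE 0.54, adjusted p = 0.0103), and in WT by 1.19 (SE 0.40, adjusted p = 0.0341). The difference of the KO effects between the ages was 2.05 (SE 0.68, adjusted p = 0.0716), and passed with total counts (2.60, adjusted p = 0.0224).

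As a share of H2B counts, Hist1h2ba held 0.307% (exact interval 0.0633% to 0.894%) and 0.219% (0.0451% to 0.637%) in KO and 4.01% (2.68% to 5.74%) and 4.02% (3.03% to 5.21%) in WT at 19 dpp. At 25 dpp the shares overlapped, with 2.86% and 4.17% in KO and 3.04% and 3.20% in WT. The 19 dpp call was lost without KO replicate 1 (−3.79, adjusted p = 0.0858) or KO replicate 2 (−3.27, adjusted p = 0.0522). The 25 dpp call was lost without WT replicate 1 (−1.27, adjusted p = 0.0574), without KO replicate 1 (−1.24, adjusted p = 0.0983) and with total counts as scaling (−1.01). The rise in WT was lost without WT replicate 1 of 19 dpp (0.84, adjusted p = 0.183), either WT replicate of 25 dpp (adjusted p = 0.123 and 0.0501) or either KO replicate of 19 dpp (adjusted p = 0.0546 and 0.0539), with total counts (0.66), without a filter and with only the 4 libraries compared. The rise in KO was lost without either KO replicate of 19 dpp (adjusted p = 0.0905 and 0.0657) or KO replicate 2 of 25 dpp (adjusted p = 0.0602). Of the 75-base windows of Hist1h2ba, 33.2% also occur in transcripts of other genes.

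The H2A partner Hist1h2aa had 4 and 4 counts in KO and 43 and 19 in WT at 25 dpp, so WT was higher without overlap. The difference was −2.77 (SE 0.67). As Hist1h2aa passed the filter only through WT at 25 dpp, its test is given without a filter (−2.69, adjusted p = 0.00658, edgeR), and with the filter the call was lost without WT replicate 1 (−2.06, adjusted p = 0.0670) or KO replicate 1 (−2.56, adjusted p = 0.0701). At 19 dpp it had 2 and 7 counts in KO and 10 and 6 in WT (−0.71, SE 0.73, adjusted p = 0.532). Its value with age in WT was 1.81 (SE 0.61), which did not pass without a filter (adjusted p = 0.0563), and its call with the filter was lost in 10 of 17 alternatives (adjusted p up to 0.264), including without each library other than WT replicate 2 of 25 dpp (1.12 to 2.29). In KO its value with age was −0.26 (SE 0.79, adjusted p = 0.879), and the difference of the KO effects was −2.06 (SE 1.01, adjusted p = 0.186). No window of Hist1h2aa was shared with another gene. Between the genes of this pair lay TATAAA matches for each direction, 4 CCAAT matches and 1 ATTTGCAT match, in capitals in the stretch from the one TATAAA to the other (plus strand, GRCm38.p6).
Hist1h2ba to Hist1h2aa, chr13:23934245-23934410: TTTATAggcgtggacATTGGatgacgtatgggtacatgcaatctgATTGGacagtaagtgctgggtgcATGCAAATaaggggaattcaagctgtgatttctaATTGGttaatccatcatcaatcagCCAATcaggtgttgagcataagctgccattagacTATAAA

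**Figure D3:**
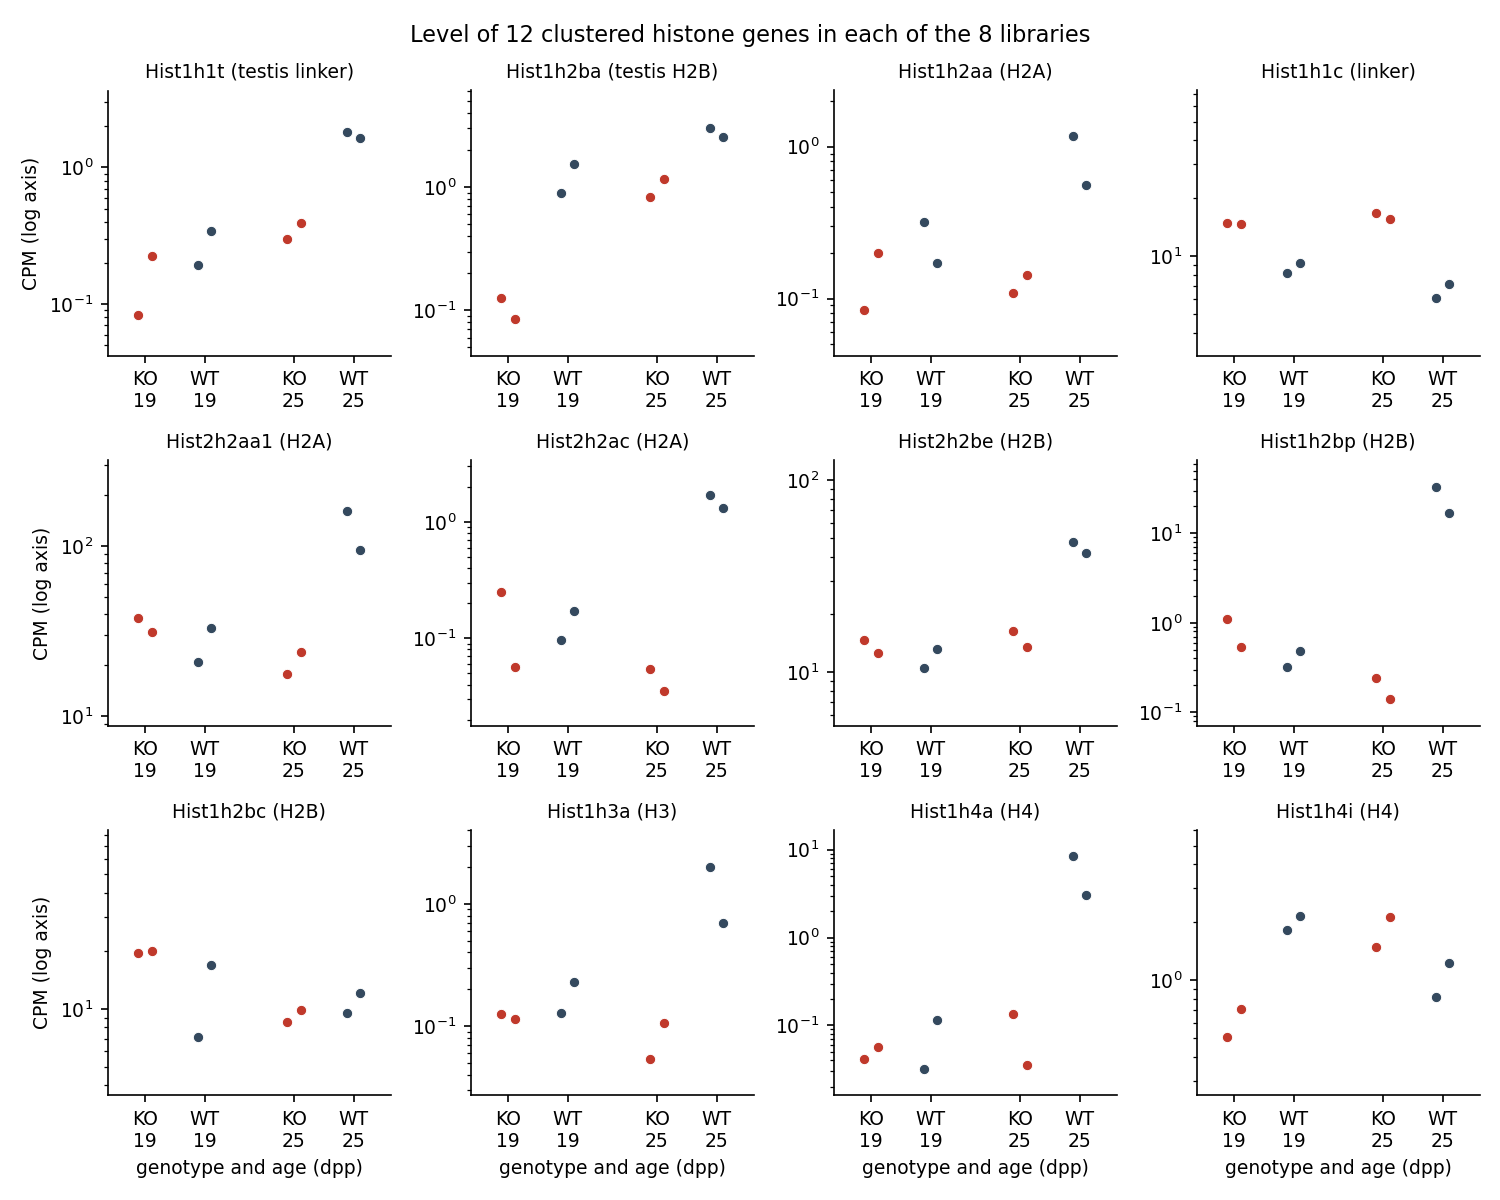
Level (CPM, log axes) of 12 clustered histone genes in each library; red KO, dark blue WT, grouped by age in dpp. At 25 dpp both WT points lie above both KO points for Hist1h1t, Hist1h2ba, Hist1h2aa, Hist2h2aa1, Hist2h2ac, Hist2h2be, Hist1h2bp, Hist1h3a and Hist1h4a, while Hist1h1c is higher in KO; Hist1h4i lies lower in KO at 19 dpp and higher at 25 dpp.

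At 25 dpp, 16 of the 31 tested members fell in KO and 1 rose. Over all tested genes 63.5% were called, 37.4% down and 26.1% up. Without the 6 members that passed only through WT at 25 dpp, 10 of 25 (40%) fell, which is near the 37.4% of all genes, and 1 of 25 (4%) rose. The shares of all genes were not cut in this way, so the comparison is not like for like. With total counts as scaling 12 members fell and 3 rose, against 30.4% of all genes down and 38.5% up, and with Sertoli scaling 24 fell, against 69.4% of all genes. The median over tested members was −1.09, and −0.76 without the 6, against −0.12 over all tested genes. Without the 6, both testis forms, 3 of 4 H2A, 4 of 9 H2B, 0 of 1 H3 and 1 of 5 H4 members fell, and the 6 added 3 H2A, 1 H3 and 2 H4 genes. By place, with the 6 included, 9 of 21 tested members of Hist1, 5 of 7 of Hist2 and 2 of 2 of Hist3 fell. All 6 were among those that fell, and they lie in Hist1 and Hist2.

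**Figure D4:**
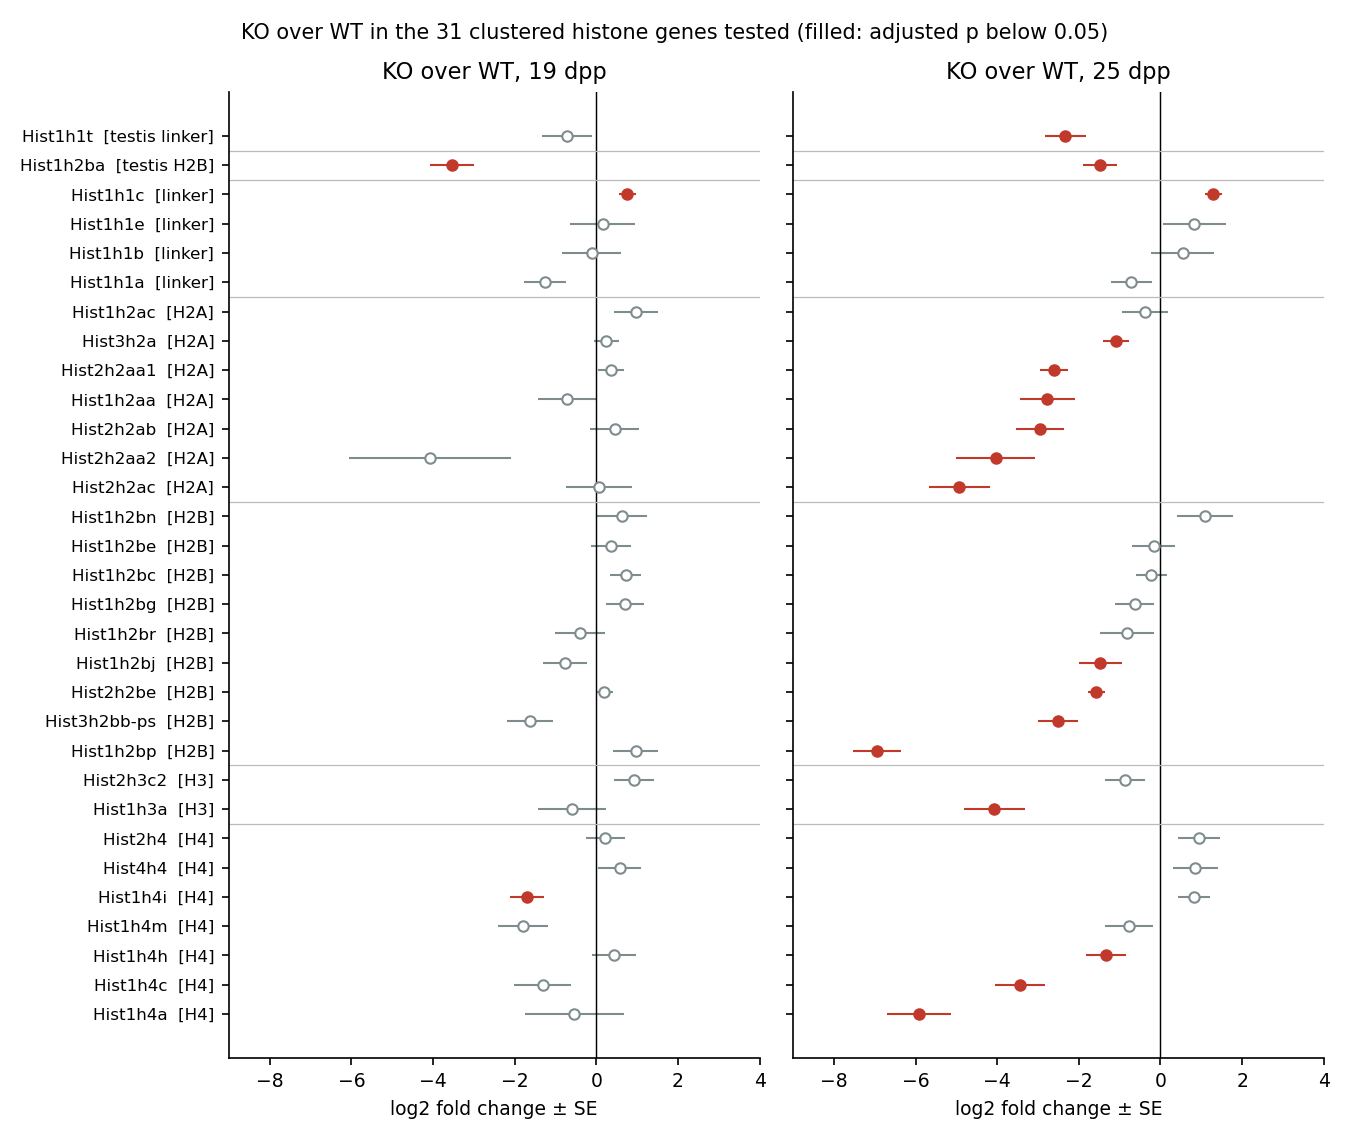
Log2 fold change of KO over WT (point ± SE of the edgeR fit) for the 31 tested members at 19 dpp (left) and 25 dpp (right), ordered by class; filled red points passed an adjusted p below 0.05, open grey points did not. At 19 dpp 3 points are filled, and at 25 dpp 17 are, 16 of them left of 0.

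Within H2A, Hist2h2aa1 gave the most counts of any member. It had 17.6 and 24.0 CPM in KO and 160.2 and 94.5 CPM in WT at 25 dpp, with no overlap, and its difference was −2.62 (SE 0.34, adjusted p = 7.91e-04, edgeR). At 19 dpp it had 37.8 and 31.3 CPM in KO and 20.9 and 33.2 CPM in WT, which overlapped. Per kilobase of exon its mean was 35.5 CPM in KO and 217 CPM in WT at 25 dpp, the highest of the members in WT. It held 23.3% and 27.8% of member counts in KO and 51.2% and 44.0% in WT at that age. Of its 75-base windows 88.9% also occur in other genes, among them Gm20634 on the same strand and the near-identical Hist2h2aa2, so its value is uncertain as that of a single gene. Hist2h2aa2, which shares every window, had 0 and 2 counts in KO and 26 and 15 in WT at 25 dpp (−4.04, SE 0.96). It too passed the filter only through WT at 25 dpp. Without a filter its adjusted p was 0.00558 (edgeR), and its call was lost without WT replicate 1 (adjusted p = 0.0556) or KO replicate 1 (adjusted p = 0.0726).

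Hist2h2ac, another H2A gene, passed the filter only through WT at 25 dpp. It had 2 and 1 counts in KO and 62 and 45 in WT at 25 dpp, against 6 and 2 counts in KO and 3 and 6 in WT at 19 dpp. Only the WT libraries at 25 dpp stood apart. The difference was −4.92 (SE 0.75) at 25 dpp, called also without a filter (adjusted p = 4.66e-05, edgeR), and 0.06 (SE 0.81) at 19 dpp. A microRNA entry, Gm44492, lies inside Hist2h2ac on the other strand, and had 3 and 2 counts in KO and 20 and 22 in WT at 25 dpp. Hist2h2ab had 12 and 13 counts in KO and 134 and 83 in WT at that age (−2.95, SE 0.58, adjusted p = 0.00334).

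Hist3h2a had 3.78 and 6.07 CPM in KO and 11.1 and 9.89 CPM in WT at 25 dpp (−1.09, SE 0.31, adjusted p = 0.0158, edgeR). This call was lost without WT replicate 1 (−0.94, adjusted p = 0.0601), without KO replicate 1 (−0.77, adjusted p = 0.108) and with total counts (−0.62, adjusted p = 0.100). Its gene overlaps Trim17 on the same strand, and Trim17 had 1.35 and 1.67 CPM in KO and 184 and 48.5 CPM in WT at 25 dpp. The part of those reads in the Hist3h2a counts was not tested.

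Within H2B, Hist1h2bp showed the largest fall of all members. It had 9 and 4 counts in KO and 1204 and 570 in WT at 25 dpp, or 0.243 and 0.142 CPM in KO and 32.8 and 16.7 CPM in WT. At 19 dpp it had 26 and 19 counts in KO and 10 and 17 in WT, so the WT libraries of 25 dpp alone were high. The 25 dpp difference was −6.94 (SE 0.59, adjusted p = 3.08e-04, edgeR), and WT rose by 5.91 between the ages (SE 0.55, adjusted p = 4.17e-04). Its share of H2B counts at that age was 0.830% and 0.506% in KO and 32.7% and 20.96% in WT. Of its windows 36.9% are shared, mostly with other H2B genes such as Hist1h2bq.

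Hist2h2be, whose windows are all its own, had 16.5 and 13.5 CPM in KO and 47.7 and 41.8 CPM in WT at 25 dpp. At 19 dpp it had 14.7 and 12.6 CPM in KO and 10.6 and 13.2 CPM in WT. The groups parted only at the later age (−1.58, SE 0.21, adjusted p = 6.90e-04, edgeR, against 0.20, SE 0.20, adjusted p = 0.527). Hist1h2bc, by contrast, had 8.57 and 9.87 CPM in KO and 9.49 and 12.02 CPM in WT at 25 dpp, which overlapped (−0.22, SE 0.38, adjusted p = 0.626), and its 19 dpp difference was 0.72 (SE 0.38, adjusted p = 0.211; without WT replicate 2 of that age 1.48, adjusted p = 0.0306). Under the other scalings its 25 dpp value was 0.23 with total counts and −1.65 with Sertoli genes (adjusted p = 0.595 and 0.0125). The pseudogene Hist3h2bb-ps had 13 and 15 counts in KO and 98 and 81 in WT at 25 dpp (−2.52, SE 0.49, adjusted p = 0.00305). Hist1h2bj also fell, by 1.48 (SE 0.53, adjusted p = 0.0402), a call lost under total counts, without a filter and without any 1 of 5 libraries (KO replicates 1 and 2 of 19 dpp, WT replicate 1 and KO replicates 1 and 2 of 25 dpp, adjusted p 0.0539 to 0.193).

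H2A and H2B genes of the clusters often lie head to head: 14 such pairs had their starts within 500 bases, and in 4 of them both genes were tested. In 3 of these 4 (Hist2h2ac with Hist2h2be, Hist3h2bb-ps with Hist3h2a, and Hist1h2ba with Hist1h2aa) both genes were called lower in KO at 25 dpp, and in the fourth, Hist1h2ac with Hist1h2bc, neither was called. Single genes were called lower in 37.4% of all cases, and Hist2h2ac and Hist1h2aa are among the 6 that passed the filter only through WT at 25 dpp, so the 4 pairs are described and not compared with chance. Hist1h2bp stood out from its partner Hist1h2an, which was not tested and had 16 counts over the 8 libraries against 1859. The stretches between the starts of 2 such pairs are shown, with the 3 motifs of either strand in capitals (GRCm38.p6). The second runs from RefSeq's start of Hist1h2an, which lies closer to Hist1h2bp than GENCODE's start does.
Hist2h2ac to Hist2h2be, chr3:96220881-96221118, minus strand: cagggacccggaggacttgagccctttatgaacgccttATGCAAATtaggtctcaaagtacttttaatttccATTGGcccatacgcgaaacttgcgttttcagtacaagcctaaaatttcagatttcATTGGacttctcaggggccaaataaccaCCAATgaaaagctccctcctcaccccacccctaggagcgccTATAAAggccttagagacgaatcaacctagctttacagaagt
Hist1h2an to Hist1h2bp, chr13:21787249-21787460, plus strand: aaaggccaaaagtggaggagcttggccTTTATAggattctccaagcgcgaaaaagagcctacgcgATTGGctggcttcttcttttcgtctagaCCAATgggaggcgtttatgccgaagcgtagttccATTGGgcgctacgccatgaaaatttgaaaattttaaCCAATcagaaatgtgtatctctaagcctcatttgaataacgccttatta
The first holds 3 CCAAT, 1 TATAAA and 1 ATTTGCAT match, and the second 4 CCAAT and 1 TATAAA match.

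**Figure D5:**
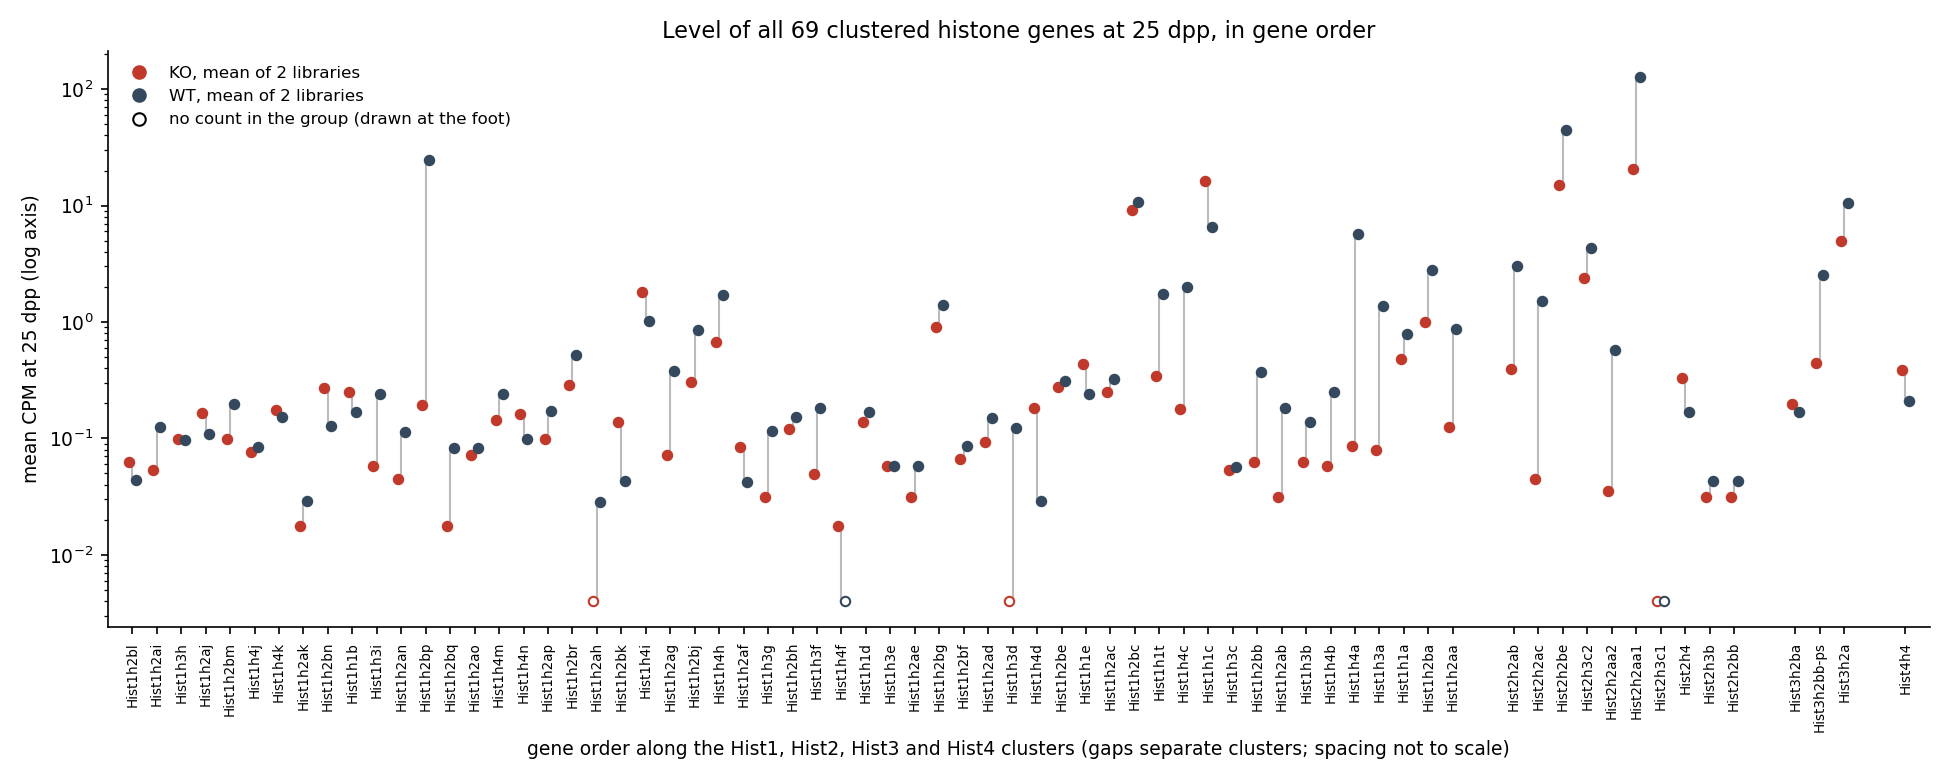
Mean level of all 69 members at 25 dpp (CPM, log axis, mean of 2 libraries) in gene order along the 4 clusters, red KO and dark blue WT joined by a grey line; open points mark a group without counts and spacing is not to scale. Wide gaps between KO and WT are seen for Hist1h2bp and for the neighbours Hist1h4a with Hist1h3a and Hist2h2ac with Hist2h2ab.

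Among H3 genes 2 were tested. Hist1h3a had 2 and 3 counts in KO and 74 and 24 in WT at 25 dpp, against 3 and 4 in KO and 4 and 8 in WT at 19 dpp. The WT libraries of 25 dpp were the only ones through which it passed the filter, and the difference was −4.07 (SE 0.75, without a filter −3.99 with adjusted p = 2.41e-04, edgeR). Hist2h3c2 had 1.60 and 3.19 CPM in KO and 4.33 and 4.39 CPM in WT at 25 dpp, and 6.03 and 5.90 CPM in KO and 1.80 and 4.48 CPM in WT at 19 dpp. Neither of its differences passed (−0.87, SE 0.48, adjusted p = 0.150, and 0.92, SE 0.48, adjusted p = 0.208), and 62.6% of its windows are shared. With Sertoli scaling the 25 dpp value was −2.28 (adjusted p = 0.0107). Hist1h3f, the third by level, was not tested, with 1 and 2 counts in KO and 8 and 5 in WT at 25 dpp.

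H4 genes, most of which encode the same protein, differed among themselves. Hist1h4a had 5 and 1 counts in KO and 307 and 103 in WT at 25 dpp, and 1 and 2 in KO and 1 and 4 in WT at 19 dpp. Hist1h4a and Hist1h4c passed the filter only through WT at 25 dpp. Hist1h4a differed by −5.92 (SE 0.79) in KO at 25 dpp and by 6.17 (SE 0.80) with age in WT. Both were called without a filter (adjusted p = 9.51e-07 and 9.88e-07, edgeR), p-values not comparable with those of the filtered fit. Hist1h4c had 8 and 4 counts in KO and 81 and 62 in WT at 25 dpp (−3.44, SE 0.61, without a filter adjusted p = 2.08e-04). Hist1h4h fell by 1.33 (SE 0.50, adjusted p = 0.0468), a call lost in 9 of 18 alternatives (adjusted p up to 0.226): under total counts, without a filter, under the replicate block, and without any 1 of the 4 libraries of 25 dpp or the 2 KO libraries of 19 dpp.

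Of the 7 tested H4 genes, 3 lay above WT in KO at 25 dpp, and 4 had a higher KO effect at 25 than at 19 dpp. Hist1h4i was the only one called at 19 dpp and the only one called for that difference between the ages. It had 12 and 25 counts in KO and 57 and 75 in WT at 19 dpp, or 0.503 and 0.709 CPM in KO and 1.83 and 2.15 CPM in WT, and fell by 1.70 (SE 0.41, adjusted p = 0.0258, edgeR). At 25 dpp it had 1.49 and 2.13 CPM in KO and 0.818 and 1.23 CPM in WT (0.82, SE 0.39, adjusted p = 0.104), so that KO was now above WT. With Sertoli scaling that value was −0.58 (adjusted p = 0.268), and with total counts 1.27 (adjusted p = 0.0238). In KO it rose by 1.55 between the ages (SE 0.41, adjusted p = 0.0385). The 19 dpp call was lost without any 1 of the 4 libraries compared: −1.81 and −1.57 without WT replicates 1 and 2 (adjusted p = 0.0506 and 0.110), and adjusted p = 0.188 and 0.0824 without KO replicates 1 and 2. The rise in KO was lost without either KO library of 19 dpp (adjusted p = 0.243 and 0.106) or of 25 dpp (0.0784 and 0.190), without WT replicate 2 of 19 dpp (0.0501) and with Sertoli scaling (0.0510).

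At 19 dpp 3 of 31 tested members were called, 2 down (Hist1h2ba and Hist1h4i) and 1 up (Hist1h1c), against 22% of all tested genes, 13.2% down and 8.8% up. With Sertoli scaling 5 fell, against 40.9% of all genes, and with total counts 2 fell, against 14.6%. The median over tested members was 0.15, against 0.00 over all tested genes. Without KO replicate 1 or KO replicate 2 of 19 dpp the count of members called down was 0 by edgeR, where DESeq2 and limma-voom on all libraries called 2 each and 5 members fell at an unadjusted p under 0.05. Over all genes 0% were called without KO replicate 1, and 4.58% were called down without KO replicate 2, so calls were lost across genes and not in these members alone.

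The age comparison in WT asks how histone RNA changed while the first wave of germ cells went on from meiosis. Of 31 tested members 14 rose from 19 to 25 dpp, against 34.9% of all tested genes up and 25.4% down (60.3% in either direction). Without the 6 members that passed only through WT at 25 dpp, 8 of 25 (32%) rose, near the share of all genes. That share was not cut in the same way, so the comparison is not like for like. The median was 0.48, and −0.16 without the 6, against 0.01 over all tested genes. By edgeR 0 members fell, against 1 by limma-voom (25.6% of all genes), 0 by DESeq2 (23.1%) and 1 with an unadjusted p under 0.05. With total counts as scaling 11 rose and 3 fell, against 27% and 41.6% of all genes. Besides the members named above, Hist2h2aa1 rose by 2.24 (SE 0.33, adjusted p = 0.00180) and Hist2h2be by 1.91 (SE 0.21, adjusted p = 5.71e-04). Of the 6, Hist2h2ac differed by 3.43 (SE 0.64, without a filter adjusted p = 5.90e-04) and Hist1h3a by 2.89 (SE 0.67, without a filter adjusted p = 0.00256), where the call with the filter was lost without WT replicate 1 of 19 dpp (2.54, adjusted p = 0.0527) or of 25 dpp (1.89, adjusted p = 0.0684). The linker genes other than Hist1h1t were not called, with Hist1h1c at −0.40 (SE 0.20, adjusted p = 0.121).

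In KO the same comparison called 2 of 31 members, Hist1h2ba and Hist1h4i, both up, against 19.1% of all tested genes in either direction, 10.2% up and 8.87% down. The median was −0.26, against 0.00 over all tested genes. By edgeR 0 members fell, against 4 by DESeq2 (12.9% of all genes), 0 by limma-voom (9.45%) and 4 with an unadjusted p under 0.05. Hist1h2bp stood at −1.99 there (SE 0.60, adjusted p = 0.0538).

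The KO effect itself differed between the ages for 6 of 31 members, 5 with a lower and 1 with a higher value at 25 dpp. Over all tested genes 19.1% differed, 11.4% lower and 7.68% higher. Without the 6 members that passed only through WT at 25 dpp, 4 of 25 (16%) were lower and 1 of 25 (4%) higher. With total counts as scaling 6 were lower and 3 higher, against 8.42% and 23.8% of all genes, and with Sertoli scaling 5 were lower, against 10% of all genes. Without single libraries the count of members changed, as did the count over all genes. The 5 were Hist1h2bp (−7.91, SE 0.79, adjusted p = 0.00522, edgeR), Hist2h2aa1 (−2.97), Hist2h2be (−1.78), Hist2h2ac (−4.99) and Hist2h2ab (−3.41), and the other one was Hist1h4i (2.51, SE 0.57, adjusted p = 0.0243). The calls of Hist2h2ac, Hist2h2ab and Hist1h4i were lost without 5, 6 and 6 of the 8 libraries, and Hist2h2ac passed the filter only through WT at 25 dpp. For Hist1h1t the difference was −1.62 (SE 0.81, adjusted p = 0.193) and for Hist1h1c 0.53 (SE 0.28, adjusted p = 0.220). These 2 contrasts at each age share no library, but each age contrast shares 1 group of libraries with each of them.

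The 38 members that were not tested had at most 20 counts in any library, and at most 48 per gene over the 8 libraries. Their counts summed to 58 and 113 in KO and 74 and 117 in WT at 19 dpp. At 25 dpp the sums were 87 and 92 in KO and 193 and 128 in WT. They were 12 H2A, 9 H2B, 10 H3, 6 H4 and 1 linker gene. In 22 of them at least 50% of the 75-base windows were shared with other genes, against 7 of the 31 tested. Hist1h3d had no count in KO and 8 and 1 in WT at 25 dpp, a level at least 2.76-fold lower in KO when 3 counts over the group are taken as the limit.

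Histone genes outside the clusters make polyadenylated mRNA. Of 18 such genes tested, 5 fell in KO at 19 dpp, and 9 fell and 3 rose at 25 dpp (median −0.59; with total counts 6 and 6, with Sertoli scaling 15 fell). For these and the next lists, the shares of all tested genes were 13.2% down and 8.8% up at 19 dpp and 37.4% down and 26.1% up at 25 dpp, and under the other scalings those given above. The spermatid linker genes Hils1 and H1fnt and the short H2A variant gene H2afb1 had no counts in KO at 25 dpp, against 266 and 68.6 CPM, 169 and 23.8 CPM, and 30.8 and 2.84 CPM in WT. Their levels were at least 3714-fold, 2145-fold and 376-fold lower in KO, with 3 counts over the group as the limit. H1fnt and H2afb1 had counts only in WT at 25 dpp and passed the filter only through those libraries. Their calls were favoured by the filter. The counts and median over the 18 genes include them, so these are descriptions and not like for like with all genes. H2afz, the H2A.Z gene, had 148 and 155 CPM in KO and 297 and 289 CPM in WT at 25 dpp (−0.95, SE 0.12, adjusted p = 5.84e-04, edgeR). H3f3a and H3f3b, both for H3.3, were at −0.60 (adjusted p = 0.00334, 0.405 with total counts) and −0.47 (adjusted p = 0.0981).

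Genes for processing of histone mRNA fell in 9 of 23 cases at 19 dpp, and at 25 dpp 8 fell and 5 rose (10 rose and 4 fell with total counts, and 22 fell with Sertoli scaling). Their shares at 25 dpp were near those of all genes, and their median was −0.23, against −0.12 over all genes. Coil, which encodes the Cajal body protein coilin, had 27.0 and 30.6 CPM in KO and 294 and 201 CPM in WT at 25 dpp (−3.10, SE 0.27, adjusted p = 3.15e-04, edgeR). Ncbp1, for the larger cap-binding subunit, fell by 2.36 and Cstf1, of the cleavage stimulation factor, by 1.75.

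Of 24 histone chaperone genes 9 fell and 3 rose at 19 dpp, and 7 fell and 5 rose at 25 dpp (4 and 10 with total counts, 21 fell with Sertoli scaling). The shares at 25 dpp were at or below those of all genes, and the median was −0.07. Nasp, a chaperone of H1 and H3-H4 with a testis form, had 386 and 454 CPM in KO and 1873 and 1454 CPM in WT at 25 dpp (−1.99, SE 0.25, adjusted p = 6.89e-04, edgeR). Chaf1a, the large subunit of CAF-1, fell by 2.48 and Atrx, which deposits H3.3 with Daxx, rose by 1.76 there. Of 30 DNA replication genes, 15 fell at 19 dpp, and at 25 dpp 14 rose and 7 fell (15 and 2 with total counts, while 19 fell with Sertoli scaling). Rfc2, a clamp loader subunit, fell by 1.98, Mcm7, of the replicative helicase, by 1.37, and Pola1, the primase-bound polymerase, rose by 1.40.

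Markers of some cell types moved with the groups, and those of spermatids, pachytene cells and Sertoli cells are given here. Of 8 macrophage genes 0 were called between KO and WT at either age. Of 7 endothelial genes 1 fell and 0 rose in KO at 25 dpp. The 14 tested spermatid genes, all lower in KO at 25 dpp (median −10.50), summed to 14.3 and 22.8 CPM in KO and 4221 and 877 CPM in WT. Tnp2, Prm1 and Prm2 had counts only in WT at 25 dpp. These 3 passed the filter only through those libraries, so their calls were favoured by it. The count and median over the 14 genes include them and are descriptions. The 2 WT libraries of 25 dpp thus differed from each other in the spermatid genes. The first of them was also the higher one for the sum of all members (312.6 against 214.7 CPM). The same held for both testis forms and for the H2A, H2B, H3 and H4 sums. The linker sum without Hist1h1t (7.72 against 8.19 CPM), Hist1h2bc and Hist1h4i were higher in the second. The 12 pachytene genes fell at both ages, with sums of 190 and 256 CPM in KO and 1335 and 3186 CPM in WT at 19 dpp, and 1017 and 1830 CPM in KO and 14889 and 11650 CPM in WT at 25 dpp. Of 20 Sertoli genes 14 rose in KO at 19 dpp and 17 at 25 dpp (10 and 19 with total counts), with sums of 10900 and 8994 CPM in KO and 3231 and 4077 CPM in WT at 25 dpp. The part of these cell types in the histone values was not tested. Dnmt3a stood at 76.8 and 67.2 CPM in KO and 48.7 and 70.0 CPM in WT at 25 dpp, and since the deleted part is unknown, its count is no check of the labels.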

How the data were processed

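Whole testis RNA of 8 libraries was compared in 4 groups of 2. The deposited values are raw read counts per gene, 1 file per library. Per the submitters' processing notes, STAR 2.7.0a, featureCounts 1.5.1 and mm10 were used; the annotation, strand setting and treatment of reads with several alignments are not given in the sources used here. Of 55292 entries, 54087 were genes and 1205 repeat families, which were left out of totals (4.1% to 5.68% of counts). A floor of 3 counts was 0.0811 to 0.126 CPM.

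Counts were filtered with filterByExpr by group (23353 genes, at least 10 counts at the median depth, 0.308 CPM, in 2 libraries), scaled by TMM and fitted in edgeR 4.0.16 (R 4.3.3) by robust quasi-likelihood with 1 mean per group and 4 residual degrees of freedom. The SE was taken as the size of the log2 difference divided by the root of its F statistic. P-values were adjusted by Benjamini-Hochberg over all 23353 genes. The procedure was tested on simulated data.

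Members and the 16 gene lists (226 genes) were chosen with earlier results of these data known. Named were the testis forms, every linker gene, per class the 3 highest members by mean CPM and the largest called rise and fall per contrast, and in other lists up to 6 genes, by change and level, of which a part is printed. Hist2h2aa2, Hist3h2bb-ps, Hist1h2bj, Hist1h4c, Hist1h3d, Trim17 and Gm44492 were added after their values were seen.

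Genes were placed on GENCODE M21. A gene's shared share is the percent of 75-base windows of its exons also found in another gene's transcripts. Promoters were RefSeq's (GRCm38.p6). Alternatives were DESeq2 size factors, total counts or Sertoli genes as scaling, other filters, DESeq2 1.42.0, limma-voom (limma 3.58.1), a replicate block, the 4 libraries compared alone, and each library left out.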

Additional observations from a re-analysis of the deposited data

Results flagged for a closer look

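For 6 members the KO over WT difference was not the same at the 2 ages, by edgeR's test of that difference. Hist1h2bp differed by −7.91 on the log2 scale (adjusted p = 0.00522), with −6.94 at 25 dpp and 0.96 at 19 dpp. Hist2h2aa1 differed by −2.97 (adjusted p = 0.00937), with −2.62 at 25 dpp and 0.35 at 19 dpp. Hist2h2be differed by −1.78 (adjusted p = 0.00939), with −1.58 at 25 dpp and 0.20 at 19 dpp.

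Hist2h2ac differed by −4.99, with −4.92 at 25 dpp and 0.06 at 19 dpp. Hist2h2ab differed by −3.41 (adjusted p = 0.0299, edgeR), with −2.95 at 25 dpp and 0.46 at 19 dpp. Hist1h4i was the exception in direction, at 2.51 (adjusted p = 0.0243), with 0.82 at 25 dpp and −1.70 at 19 dpp. The calls of Hist1h2bp, Hist2h2aa1 and Hist2h2be held without any 1 library. Those of Hist2h2ac, Hist2h2ab and Hist1h4i were lost without 5, 6 and 6 of the 8 libraries, with adjusted p up to 0.139, 0.116 and 0.101. Hist2h2ac passed the filter only through WT at 25 dpp (without a filter −4.90, adjusted p = 0.00873).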

How the results depend on the processing

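The limits here are 2 libraries a group, few counts per member, shared sequence and the choice of scaling. Scaling moved the median of all genes in KO over WT at 25 dpp by 0.46 (total counts), −1.45 (Sertoli) and −0.11 (DESeq2 factors), at 19 dpp by −0.82 (Sertoli), in WT with age by −0.52, 0.90 and 0.14, in KO with age by 0.30 (Sertoli), and in the difference of effects by 0.55 (total counts) and −0.59 (Sertoli). Of 42 called values, 22 were called under every alternative that gave one. Both numbers include calls of the 6 members that passed the filter only through WT at 25 dpp, which the filter favoured. The cause was not tested for any value below.

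Counts of called members moved as follows, beside the shares of all tested genes, given first for the main settings. At 19 dpp (1 up, 2 down), up was 0 with total counts, Sertoli scaling or no filter. The share of all genes up went from 8.8% to 5.5%, 0.313% and 5.25%. Down was 5 with Sertoli scaling (all genes 13.2%, then 40.9%). At 25 dpp (1 up, 16 down), up was 3 with total counts and 0 with Sertoli scaling (all genes 26.1%, then 38.5% and 1.01%). In WT with age (0 down), down was 3 with total counts and 1 with limma-voom (all genes 25.4%, then 41.6% and 25.6%). In KO with age (2 up, 0 down), up was 1 with Sertoli scaling (all genes 10.2%, then 6.38%). Down was 1 with total counts, 3 without a filter and 1 at 1 CPM in 2 libraries. It was 4 with DESeq2 and 5 with the 4 libraries compared alone. The share of all genes down went from 8.87% to 7.41%, 5.22%, 11.4%, 12.9% and 17.1% in that order. In the difference of effects (1 up, 5 down), up was 3 with total counts and 0 with Sertoli scaling (all genes 7.68%, then 23.8% and 0.522%). Down was 9 with DESeq2 and 8 with limma-voom (all genes 11.4%, then 21.1% and 18.3%).

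Deviations of same-numbered libraries correlated at 0.214 to 0.592 among the groups other than WT at 25 dpp and at −0.269 to −0.138 with that group, so the numbers as labelled were not taken to pair the libraries. The replicate block left 15 members down at 25 dpp, with Hist1h4h lost (adjusted p = 0.0519, edgeR), and gave 1 down in WT and 2 down in KO with age. Over all genes 37.5%, 24.9% and 8.59% were down under it. With the WT numbers of 25 dpp crossed, chosen after seeing the data, 4 members were down in KO with age and 9 in the difference of effects. Over all genes 11.8% and 15.2% were down there.

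Leaving out each library in turn, calls ranged from 0 to 1 up and 0 to 2 down at 19 dpp, 1 up and 10 to 17 down at 25 dpp, 9 to 14 up and 0 down in WT with age, 0 to 2 up and 0 to 3 down in KO with age, and 0 to 1 up and 3 to 8 down in the difference.

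With Sertoli scaling the sign turned for 13 values: at 19 dpp for Hist2h2ab (−0.43), Hist2h2be (−0.67), Hist2h2aa1 (−0.53), Hist3h2a (−0.64), Hist1h4h (−0.45), Hist1h1e (−0.73), Hist1h2bc (−0.17) and Hist1h1c (−0.10), at 25 dpp for Hist1h1b (−0.89), Hist1h4i (−0.58), Hist1h1e (−0.58) and Hist1h1c (−0.15), and in KO with age for Hist1h2aa (0.021). With total counts it turned for Hist1h2bc at 25 dpp (0.23). Only Hist1h1c among these was called. Leaving out 1 library turned uncalled values at 19 dpp of Hist2h2ab (range −0.10 to 1.44), Hist1h1b (−0.92 to 0.91), Hist1h4h (−0.11 to 1.00), Hist1h1e (−0.53 to 1.68) and Hist1h4a (−1.13 to 0.60), and in KO with age of Hist1h2aa (highest 0.55).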
